A study of Arabidopsis thaliana with 36 samples.

Results

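The tau (GSTU) and phi (GSTF) glutathione transferases were followed across grafted and intact hypocotyls of Arabidopsis thaliana as a family of 37 loci, 28 of them GSTU and 9 GSTF. They were selected by name from the 33341 loci of the deposited count table: GSTU1 to GSTU28, then GSTF2, GSTF3, GSTF6, GSTF7, GSTF8, GSTF9, GSTF10, GSTF11 and GSTF14. All 37 loci carry these names in the RefSeq annotation, where GSTU17 is a synonym of ERD9. The family was taken up because GSTU11 (AT1G69930) was already known to stand among the loci with the largest difference of wild-type scion and rootstock from intact hypocotyl. Those 2 wild-type contrasts are therefore described here with no test, and the tests were run on the mutant libraries, on scion against rootstock and on mutants against wild type.

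The libraries held polyadenylated RNA of hypocotyl pieces from 7-day-old seedlings kept at 20 °C with 8 h of light. Each of 4 genotypes, dof quadruple, erf114,115, anac071,096 and the wild type Col-0, gave scion, rootstock and intact tissue, with 3 libraries per group and 36 in all. Scion is the 0.5 mm above a graft junction and rootstock the 0.5 mm below it, taken 24 h after a cut hypocotyl was joined to that of a different plant, and intact is an uncut 1 mm piece. A cotyledon was removed from every seedling, intact and grafted alike. The DOF, ERF114/ERF115 and ANAC071/ANAC096 genes encode transcription factors, and the series title places them in wound healing after damage to the cell wall. Which loci the dof quadruple line carries mutations in is not stated in the labels.

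Library totals ran from 19533912 to 30492868 counts. In the lines named for them, DOF6 had 0, 1 and 0 counts summed over the 3 scion, rootstock and intact libraries of dof quadruple, against 178, 114 and 78 in Col-0. Counts of DOF6 alone do not show the state of the other loci in the quadruple line. Of the ERF pair, ERF115 had 84 counts in erf114,115 scions against 5196 in Col-0 scions, and ERF114 629 against 4784. ANAC071 had 475 and ANAC096 511 counts in anac071,096 scions, against 1931 and 2708 in Col-0 scions. Col-0 rootstock replicate 1 held 2514 loci with counts in no other library, against at most 34 in any other, and results that change without it are named where they are given. Root hair markers summed to at most 0.750 CPM, counts scaled to library size, in any library. The 8 green tissue markers summed to 7479 to 11715 CPM in the 12 scion libraries, 24253 to 37260 CPM in the 12 rootstock libraries and 42846 to 58189 CPM in the 12 intact libraries. The 8 shoot meristem markers, 3 of them with enough counts for a test, summed to 133 to 219 CPM in scion libraries. They summed to 106 to 228 CPM in rootstock libraries and 231 to 371 CPM in intact libraries. The part of these tissue differences in the results below was not tested. In such pieces fewer cells of a type and less RNA per cell cannot be told apart.

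Glutathione transferases join the tripeptide glutathione to reactive, electrophilic compounds, and the conjugates are carried into the vacuole by ABCC-type transporters. Plants have expanded the tau and phi classes into large families, and many members are known to be induced by wounding, oxidised lipids, herbicides and pathogens. TGA-type bZIP transcription factors, which bind the element TGACG, are among the regulators known to induce them.

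Most of the family lies in tandem. On the TAIR10.1 assembly, 27 of the 37 loci fell into 9 clusters of neighbours within 10 kb, of which the largest held 7 loci, GSTU1 to GSTU7 on chromosome 2. A cluster of 5, GSTU19 to GSTU23, lies on chromosome 1. GSTU11 occupies chr1:26337481-26338818 on the minus strand beside GSTU12 at chr1:26334250-26335630, and GSTU24, GSTU25 and GSTU26 follow each other on the plus strand from chr1:5869543-5870883. GSTU20 (AT1G78370) occupies chr1:29484120-29485389 and GSTF7 (AT1G02920) chr1:658578-659980, both on the minus strand.

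The sequence just before the transcription start was read for 3 members that stood far above intact hypocotyl at the graft and that hold the TGA element. The 250 bases before the annotated start are given 5′ to 3′ on the gene's own strand, from RefSeq TAIR10.1, for GSTU1 (chr2:12632539-12632788, minus), GSTU11 (chr1:26338819-26339068, minus) and GSTU25 (chr1:5871774-5872023, plus). Capitals mark TGACG on either strand, so that the element of the opposite strand reads CGTCA.
GSTU1: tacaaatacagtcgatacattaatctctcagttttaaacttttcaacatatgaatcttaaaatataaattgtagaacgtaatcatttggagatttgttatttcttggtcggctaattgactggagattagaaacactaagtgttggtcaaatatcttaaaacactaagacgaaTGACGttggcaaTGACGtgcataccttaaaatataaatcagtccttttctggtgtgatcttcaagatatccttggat
GSTU11: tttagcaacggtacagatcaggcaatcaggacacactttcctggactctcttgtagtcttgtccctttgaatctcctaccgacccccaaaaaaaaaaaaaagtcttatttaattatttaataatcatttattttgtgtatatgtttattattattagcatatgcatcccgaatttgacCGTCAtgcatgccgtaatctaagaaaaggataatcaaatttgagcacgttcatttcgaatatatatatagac
GSTU25: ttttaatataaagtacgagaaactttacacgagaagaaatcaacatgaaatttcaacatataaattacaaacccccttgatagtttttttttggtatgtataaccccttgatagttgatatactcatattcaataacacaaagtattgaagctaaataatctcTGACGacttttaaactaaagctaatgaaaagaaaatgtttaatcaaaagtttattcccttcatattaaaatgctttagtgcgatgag
GSTU1 holds 2 copies, GSTU11 a copy on the opposite strand, and GSTU25 a single copy. Over the family, 14 of 37 windows held TGACG (37.8%), against 18.6% of the 27443 windows of all annotated protein-coding genes. The W-box core TTGAC was in 22 windows (59.5% against 44.9%), ACGT in 25 (67.6% against 44.1%), the GCC-box GCCGCC in 3 (8.11% against 1.87%) and the DOF core AAAG in all 37 (100% against 98.0%). TTGAC and ACGT can share letters with TGACG, as in TTGACG and TGACGT. These shares describe letters in a window, with no test. Members without TGACG in this window included GSTU20 and GSTF9. Others without it, GSTU4, GSTU8, GSTU12, GSTU17, GSTF6 and GSTF7, also stood above intact hypocotyl on both sides of the graft.

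Near-identical copies limit the pair of GSTF6 and GSTF7, which share 94.3% of their coding bases, with 36 differences in all. GSTF2 and GSTF3 share 94.5% but no 50-base stretch of their exons. The first 150 coding bases of GSTF6 and GSTF7 are shown because reads from them are hard to assign; capitals mark the 4 differences.
GSTF6: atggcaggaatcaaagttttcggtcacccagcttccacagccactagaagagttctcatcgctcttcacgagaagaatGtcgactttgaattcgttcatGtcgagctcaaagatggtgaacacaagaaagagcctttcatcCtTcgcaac
GSTF7: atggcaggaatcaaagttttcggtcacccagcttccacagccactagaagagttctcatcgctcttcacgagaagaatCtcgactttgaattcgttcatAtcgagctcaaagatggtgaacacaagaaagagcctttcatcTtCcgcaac
Of all 50-base stretches of their exons, 10.3% in GSTF6 and 10.04% in GSTF7 occur elsewhere in the genome, so counts of these genes are uncertain where the counting could split reads between copies. GSTU8 had 1.67% and the other 34 members 0%.

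Enough counts for a test were present in 30 of the 37 members, and a member could pass this filter through the tissue in which it was high. On the 12 intact libraries alone 6 of the 30 would not pass it: GSTU3, GSTU9, GSTU11, GSTU12, GSTU22 and GSTU28. They entered the test through the grafted tissue, which favours a difference from intact, so for these 6 that difference is given as levels and they are also left out of the counts in a recount. The other 7 had between 0 and 41 counts over all 36 libraries: GSTU2 with 22, GSTU14 with 7, GSTU15 with 41, GSTU21 with 21, GSTF2 with 1, GSTF11 with 0 and GSTF14 with 7. GSTF11, a gene of glucosinolate synthesis, lies wholly inside the exons of AT3G03200 on the opposite strand, and 60.5% of GSTF2, a binder of lipophilic ligands, lies under AT4G02510, which had 240531 counts. The sources used here do not say whether counting used strand. Partners on the opposite strand cover 68.9% of GSTU7 and 29.9% of GSTU6. The partner of GSTU6 and the larger partner of GSTU7 had 0 counts, which does not show that the overlap is harmless. Counting without strand could leave reads of shared exons out of both loci.

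**Figure D1:**
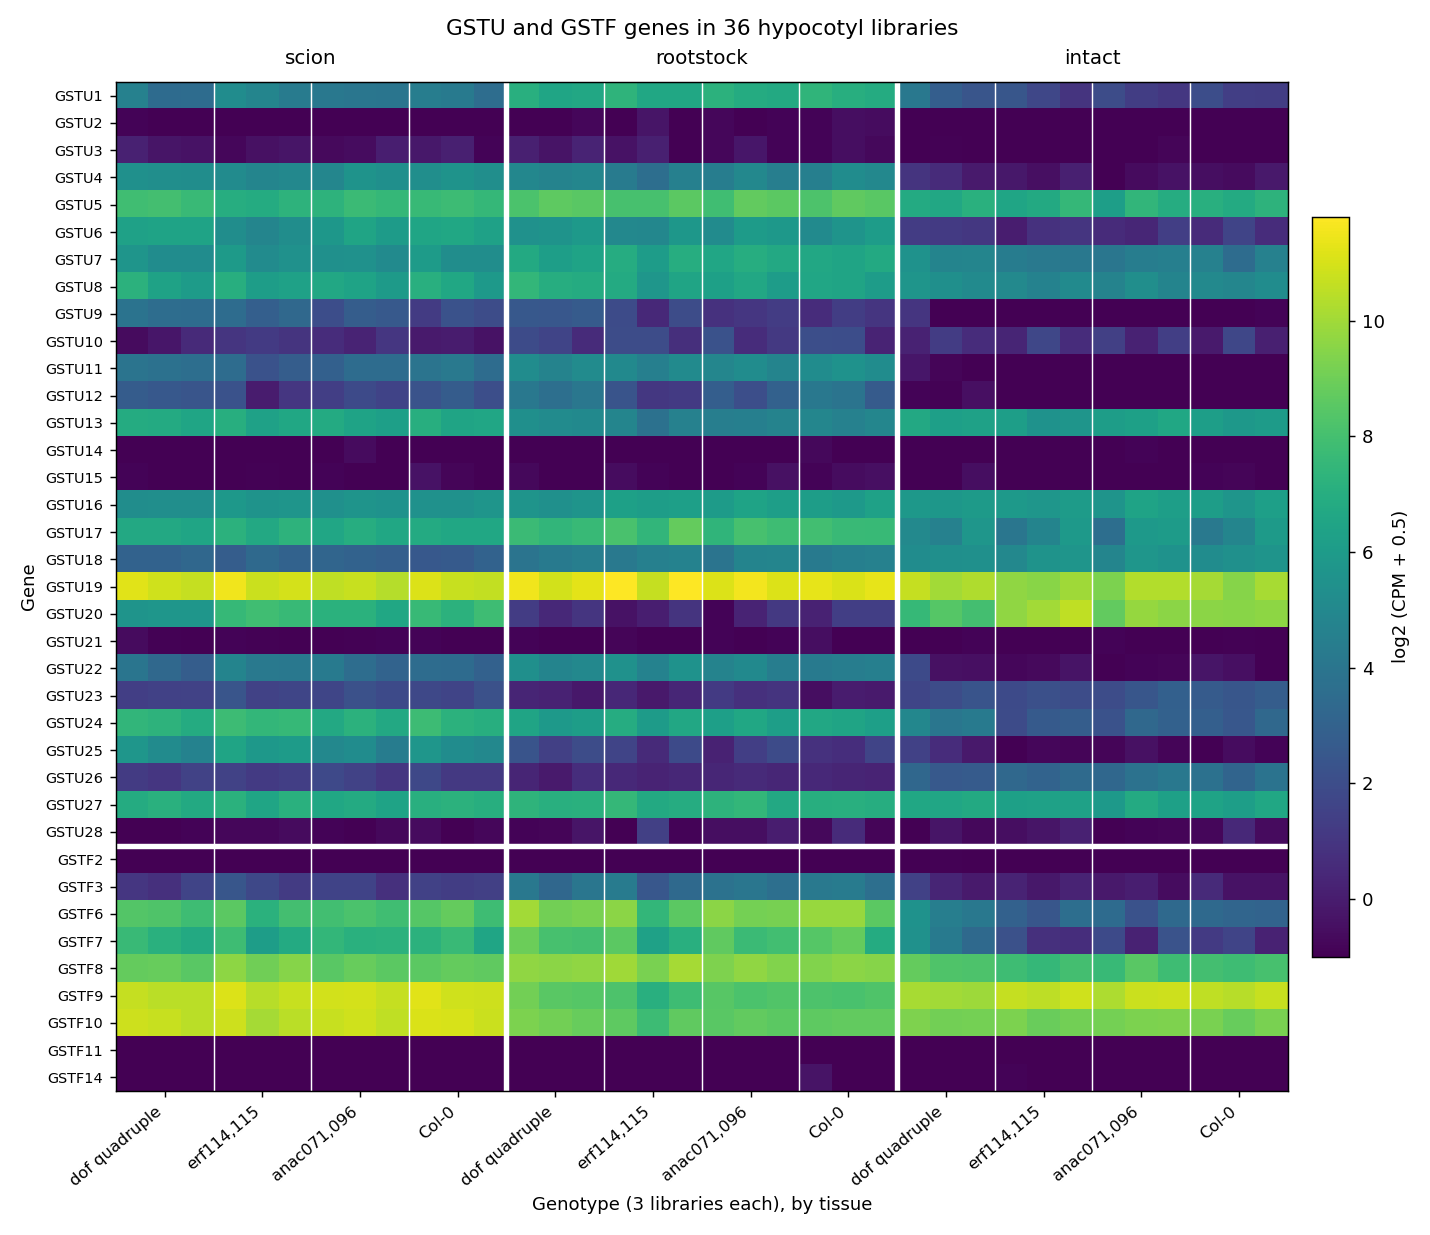
Level of each of the 37 members in each of the 36 libraries, as log2 of CPM plus 0.5 (colour). Libraries run from scion through rootstock to intact, and within a tissue from dof quadruple through erf114,115 and anac071,096 to Col-0. GSTU11 is dark in every intact column and coloured in every scion and rootstock column, while GSTU20 is bright in intact and dark in rootstock.

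Summed over the family, the tau total stood higher on both sides of the graft than in intact Col-0 hypocotyl, and the phi total stood higher above the junction. GSTU members summed to 3164 ± 485 CPM in Col-0 scions, 3833 ± 186 in Col-0 rootstocks and 2236 ± 335 in Col-0 intact tissue (SD, n = 3 each). GSTU19 alone made up 58.0% of the tau sum in Col-0 scions, 63.7% in Col-0 rootstocks and 43.3% in intact Col-0. The tau sum thus leans on that gene and does not describe the tau members in general. In the mutants GSTU sums were 3142 ± 521, 3549 ± 829 and 2617 ± 333 CPM in scions of dof quadruple, erf114,115 and anac071,096, and 3864 ± 591, 4326 ± 1413 and 3876 ± 672 CPM in their rootstocks, against 2136 ± 285, 2454 ± 574 and 2285 ± 773 CPM in their intact tissue. The rootstock mean of the tau sum was thus the highest of the 3 tissues in every genotype. GSTF members summed to 4925 ± 582, 2468 ± 467 and 2324 ± 250 CPM in the 3 tissues of Col-0. The mutant groups had GSTF sums of 4010.4 ± 439, 4286 ± 1144 and 4370.01 ± 414 CPM in scions of dof quadruple, erf114,115 and anac071,096, and 2838 ± 609.8, 2109.9 ± 846 and 2358 ± 189 CPM in their rootstocks, against 2016 ± 226, 2446 ± 282 and 2456 ± 431 CPM in their intact tissue. The scion mean of the phi sum was the highest in every genotype, while the rootstock mean was above the intact one in dof quadruple and Col-0 and below it in erf114,115 and anac071,096. These sums are given with no test. If counting ignored strand, the phi sums and ranks could lack reads of GSTF2 and GSTF11, which overlap genes on the opposite strand. Per kilobase of exon, GSTU19, known for detoxifying xenobiotics, was the most abundant tau member in 11 of the 12 groups, at 1637 CPM per kb in Col-0 scions, 2181 in Col-0 rootstocks and 864 in intact Col-0. GSTU20 led in intact erf114,115. The most abundant phi member per kilobase was GSTF9 in intact tissue of each genotype, with 1229 CPM per kb in Col-0. In scions GSTF10 led, or GSTF9 in erf114,115, and in rootstocks GSTF6 led, or GSTF8 in erf114,115.

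GSTU11 separated the tissues without overlap in each genotype. In Col-0 it had 14.6, 17.4 and 11.01 CPM in the 3 scions, 36.5, 44.9 and 37.2 CPM in the 3 rootstocks and 0 counts in each intact library. In dof quadruple it had 14.8, 13.3 and 12.04 CPM in scions, 36.4, 25.7 and 35.3 CPM in rootstocks and 0.356, 0.0616 and 0 CPM in intact tissue. In erf114,115 the values were 10.8, 4.13 and 6.31 CPM in scions and 32.7, 22.4 and 34.7 CPM in rootstocks, with 0 counts in intact tissue. Both sides of the graft thus stood apart from intact hypocotyl, and every rootstock library was above every scion library. In anac071,096 the values were 7.08, 10.9 and 11.2 CPM in scions and 29.1, 36.6 and 26.6 CPM in rootstocks, again with 0 counts in intact tissue. Against a floor of 3 counts summed over the intact group, GSTU11 was at least 349-fold higher in Col-0 scions, 165-fold in erf114,115 scions and 214-fold in anac071,096 scions. In rootstocks it was at least 963-fold, 729-fold and 669-fold higher in Col-0, erf114,115 and anac071,096.

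**Figure D2:**
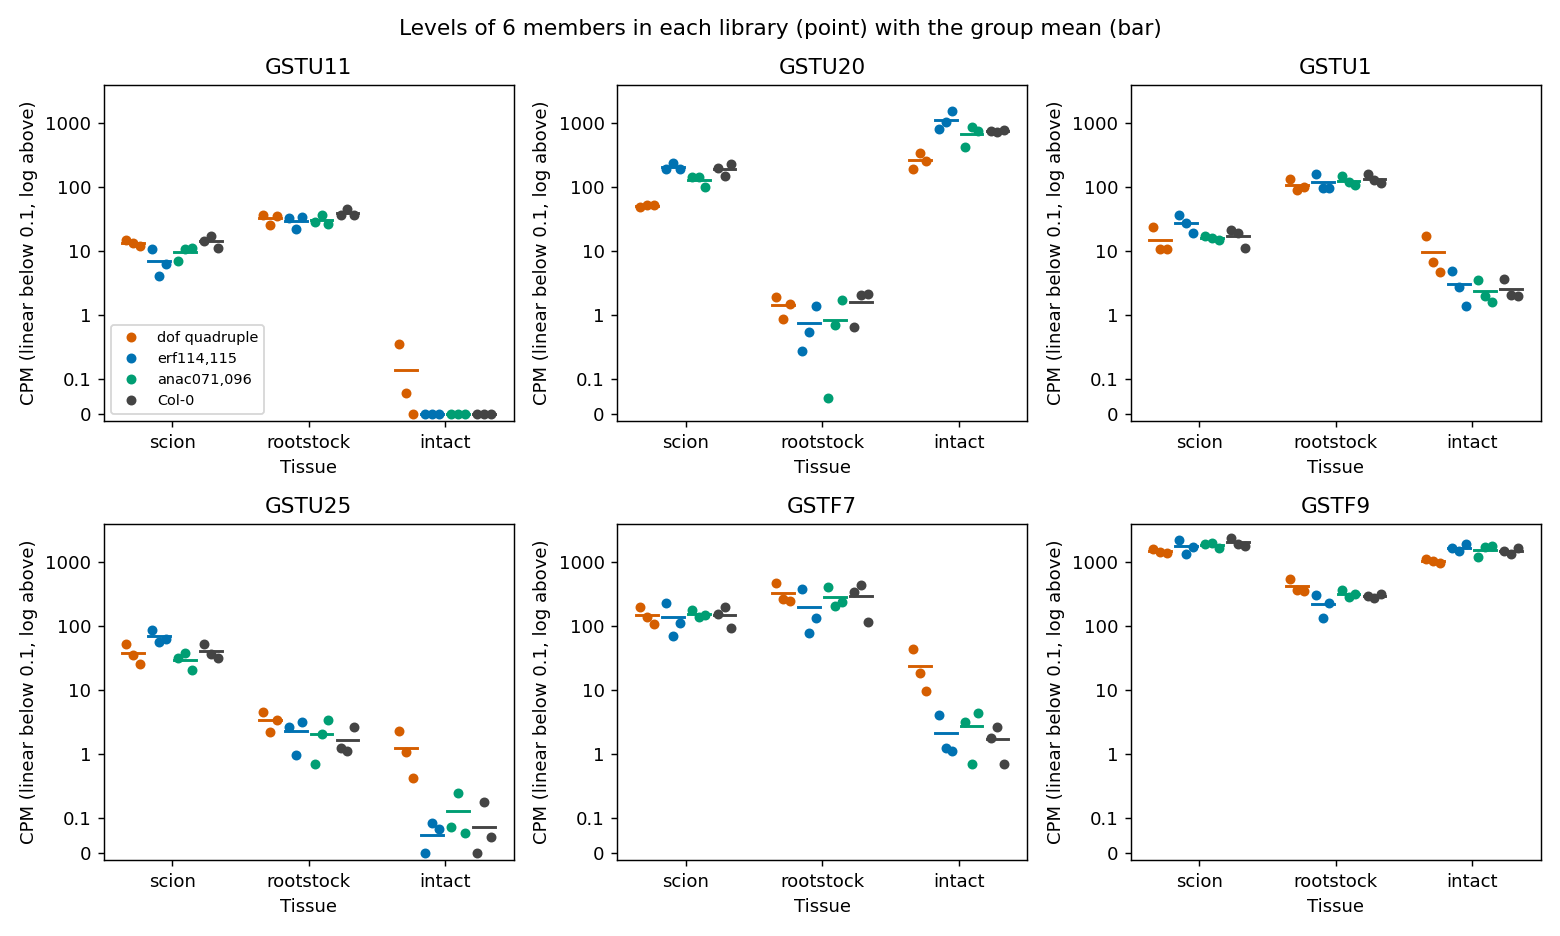
CPM of GSTU11, GSTU20, GSTU1, GSTU25, GSTF7 and GSTF9 in each library (points) with the group mean (bar), by tissue and genotype; the axis is linear below 0.1 CPM and logarithmic above. GSTU11 and GSTU1 are highest in rootstock, GSTU25 in scion, GSTU20 and GSTF9 lowest in rootstock, and GSTF7 is lowest in intact tissue.

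Other tau members were also nearly silent in intact hypocotyl. GSTU12, the neighbour of GSTU11, had 4.35, 6.10 and 3.77 CPM in Col-0 scions, 16.8, 14.6 and 5.99 CPM in Col-0 rootstocks and 0 counts in intact Col-0, at least 116-fold and 309-fold higher. GSTU4, in the chromosome 2 cluster, had 39.7, 47.96 and 38.9 CPM in Col-0 scions, 22.6, 37.05 and 31.2 CPM in rootstocks and 0.184, 0.140 and 0.413 CPM in intact tissue. GSTU22 had 11.01, 10.7 and 7.41 CPM in Col-0 scions, 18.1, 20.8 and 22.3 CPM in rootstocks and 0.322, 0.210 and 0 CPM in intact tissue. In each of these members the lowest graft library of Col-0 was above the highest intact one. GSTU25, which with GSTU24 is known for detoxifying the explosive TNT, had 53.02, 37.05 and 31.4 CPM in scions, 1.25, 1.09 and 2.63 CPM in rootstocks and 0, 0.175 and 0.0459 CPM in intact Col-0. Its scion libraries were far above both other tissues.

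Scions were compared with intact tissue in the mutants, by the quasi-likelihood test of edgeR at a threshold of 0.05, with p-values adjusted by Benjamini and Hochberg's method over the 19476 loci tested. In dof quadruple 16 of the 30 tested members rose and 4 fell, where 28.7% of all tested loci rose and 25.6% fell. In erf114,115 21 rose and 3 fell (all loci 28.7% and 21.6%), and in anac071,096 18 rose and 4 fell (all loci 27% and 22.9%). The median log2 change of the tested members was 0.82, 1.61 and 1.32 in the order of those genotypes, beside -0.01, 0.04 and 0.04 over all loci. Setting members with 0 intact counts to their floor left each median as it was. These medians include the 6 members that entered the test through the grafted tissue, which favours a difference from intact. They were not recomputed without those members. Over the 24 members that pass the filter on intact libraries alone, 11 rose and 4 fell in dof quadruple, 16 and 3 in erf114,115 and 13 and 4 in anac071,096, where 27.6% and 27.3%, 27.3% and 23.1%, and 25.7% and 24.5% of the loci kept by that filter rose and fell. In Col-0, 17 members stood more than 2-fold higher in scions without overlap and 3 lower, against 20.6% and 16.5% of all loci, with a median log2 difference of 1.56 beside 0.01. The family was taken up through this Col-0 contrast, and its values include those 6 members. They are a description and no evidence of a rise.

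The members that rose in all 3 mutant scions were GSTU3, GSTU4, GSTU6, GSTU8, GSTU9, GSTU11, GSTU12, GSTU17, GSTU22, GSTU24, GSTU25, GSTF6, GSTF7 and GSTF10, 14 in number. Of these, GSTU3, GSTU9, GSTU11, GSTU12 and GSTU22 entered the test through the grafted tissue, so their calls are no evidence of a rise. GSTU4 had 27.8 to 46.5 CPM over the 9 mutant scion libraries and 0 to 1.37 CPM over the 9 mutant intact ones, with log2 changes of 5.44 to 8.21 (adjusted p at most 1.3e-12). GSTU6 had 91.2, 99.8 and 79.7 CPM in Col-0 scions against 1.01, 2.55 and 1.06 in intact Col-0, and rose in the mutants by log2 4.96 to 5.80 (adjusted p at most 1.2e-11). GSTF7 had 152, 201 and 92.5 CPM in Col-0 scions against 1.79, 2.59 and 0.688 CPM in intact Col-0. It rose in the mutants by log2 2.64 to 6.03 (adjusted p at most 7.9e-04), with dof quadruple at the low end. GSTF10 (ERD13), the phi member highest per kilobase in most scions, had 2128, 2091 and 1754 CPM in Col-0 scions against 604, 454 and 588 in intact Col-0. It rose by log2 1.41 to 1.53 in the mutants (adjusted p at most 7.4e-07). GSTU25 rose by log2 4.99 to 10.19 (adjusted p at most 6.7e-09). GSTU22 had 6.23 to 27.04 CPM over the 9 mutant scion libraries and 0 to 3.16 CPM over the 9 mutant intact ones. GSTU9 had 1.82 to 14.3 CPM over the 12 scion libraries and 0 to 1.48 CPM over the 12 intact ones, and GSTU24 104 to 220.3 CPM and 3.31 to 29.9 CPM. For each of these the scion libraries of all 4 genotypes lay above every intact library. GSTU3 stayed below 1 CPM in every library, with 0.0405 to 0.640 CPM over the 12 scion libraries and 0 to 0.0558 CPM over the 12 intact ones. Its call in anac071,096 scions (edgeR adjusted p = 0.0223) was lost without intact replicate 1 (0.0927), intact replicate 2 (0.0769) or scion replicate 3 (0.12).

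GSTU17 (ERD9), known from light and abscisic acid responses, had 17.8, 27.9 and 61.5 CPM in intact Col-0, 32.1, 24.4 and 51.5 CPM in intact dof quadruple, 15.7, 27.3 and 60.7 CPM in intact erf114,115 and 11.8, 60.2 and 64.5 CPM in intact anac071,096. Replicate 3 was the highest intact library in each genotype. Its scion libraries lay at 90.7 to 153 CPM, above every intact one. The rise in anac071,096 scions (log2 1.22 ± 0.46, adjusted p = 0.0278) was lost without intact replicate 1 (0.15) or scion replicate 2 (0.0864), and that in dof quadruple without intact replicate 2 (0.0510).

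The members that fell in all 3 mutant scions were GSTU18, GSTU20 and GSTU26. GSTU20, a partner of the light-signalling protein FIN219 also known from glucosinolate synthesis, had 199.8, 149 and 230.2 CPM in Col-0 scions against 767, 733 and 782 CPM in intact Col-0. In the mutants it fell by log2 values of -2.44 to -2.35 (adjusted p at most 2.3e-05). GSTU18 had 5.28, 5.66 and 7.53 CPM in Col-0 scions against 37.02, 43.2 and 49.4 CPM in intact Col-0, with log2 changes of -2.44 to -2.27 in the mutants (adjusted p at most 6.7e-09). GSTU26 had 2.86, 1.69 and 1.70 CPM against 13.1, 8.32 and 14.4 CPM in the same Col-0 tissues, with log2 changes of -2.54 to -1.81 in the mutants (adjusted p at most 9.0e-06). Scion and intact libraries did not overlap for any of the 3 in Col-0. GSTU16 fell in dof quadruple (log2 -0.55 ± 0.16, adjusted p = 0.00427) and anac071,096 (log2 -0.58 ± 0.16, adjusted p = 0.00297; 0.0505 without intact replicate 2), and was at log2 -0.19 ± 0.16 in erf114,115. GSTU10, GSTU23 and GSTU28 passed in none of the 3 mutant scions.

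A further set rose in some mutant scions only. GSTU1 rose in erf114,115 (log2 3.22 ± 0.44) and anac071,096 (log2 2.74 ± 0.44; adjusted p = 4.9e-07 and 6.9e-06), and was at log2 0.69 ± 0.40 in dof quadruple (adjusted p = 0.15), where it passed without intact replicate 1 (0.00586). GSTU7 also rose in erf114,115 and anac071,096 (log2 1.38 and 1.03) and was at log2 0.32 in dof quadruple. GSTF3 rose in erf114,115 and anac071,096 (log2 2.39 and 2.42) and was at log2 0.68 in dof quadruple, where it passed without intact replicate 1 (log2 1.54, adjusted p = 0.0228). GSTF8 rose in erf114,115 (log2 1.64) and in anac071,096 (log2 0.61), a call lost without intact replicate 1 (0.14), intact replicate 3 (0.0894) or scion replicate 2 (0.0865), and was at log2 0.26 in dof quadruple.

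Of the rest, GSTU13 rose in erf114,115 scions (log2 0.91) and was at log2 0.30 and 0.14 in dof quadruple and anac071,096. GSTU19 rose in erf114,115 (log2 1.39) and was at log2 0.59 in dof quadruple, where it passed without intact replicate 1 (0.0415), and 0.50 in anac071,096. GSTU27 rose in erf114,115 (log2 0.65), a call lost without scion replicate 1 (0.12) or 3 (0.0507), and in anac071,096 it passed without intact replicate 2 (0.0465). GSTU5 rose in dof quadruple (log2 0.95 ± 0.26, adjusted p = 0.00290) and was at log2 0.61 ± 0.26 in anac071,096 (adjusted p = 0.0513), where it passed without intact replicate 2 (log2 0.95, 0.00664) or scion replicate 1 (0.0446). GSTF9 rose in dof quadruple (log2 0.52 ± 0.22, adjusted p = 0.0474), a call lost without any one of the 6 libraries compared (0.0610 to 0.14). A call in 1 mutant and not in another does not show a difference between them.

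In rootstocks 20 tested members rose and 6 fell in dof quadruple, where 22.9% of all loci rose and 17.4% fell. In erf114,115 20 rose and 7 fell (all loci 26.9% and 17.9%), and in anac071,096 19 rose and 7 fell (all loci 21.7% and 16.4%). Median log2 changes of the tested members were 1.52, 2.28 and 2.37, beside 0.01, 0.08 and 0.05 over all loci. As in scions, these medians include the 6 members that entered the test through the grafted tissue, and were not recomputed without them. Over the 24 members that pass the filter on intact libraries alone, 15 rose in each mutant and 6, 7 and 7 fell, where 21.7%, 25.9% and 20.5% of the loci kept by that filter rose and 18.6%, 19.1% and 17.5% fell. In Col-0, 19 members stood more than 2-fold higher in rootstocks without overlap and 6 lower, against 15% and 11.2% of all loci. The Col-0 median was 1.93, or 1.57 with the 3 members at 0 intact counts set to their floor, beside 0.03 over all loci. These Col-0 values, from a contrast through which the family was taken up, are also a description and no evidence of a rise. Upper-quartile scaling moved the share of all called loci that rose to 47.9% in erf114,115 rootstocks, from 60.0% under the main scaling, and to 45.4% in anac071,096, from 56.9%. The members' counts stayed at 20 and 7 in erf114,115 and at 19 and 7 in anac071,096 under that scaling, while dof quadruple had 19 and 7. It shifted the median of all loci by -0.165 in erf114,115 and -0.149 in anac071,096 (log2). Rootstock and scion changes use the same intact libraries and are therefore not independent of each other.

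The 19 members that rose in all 3 mutant rootstocks were GSTU1, GSTU4, GSTU5, GSTU6, GSTU7, GSTU8, GSTU9, GSTU11, GSTU12, GSTU17, GSTU19, GSTU22, GSTU24, GSTU25, GSTU27, GSTF3, GSTF6, GSTF7 and GSTF8. Of these, GSTU9, GSTU11, GSTU12 and GSTU22 entered the test through the grafted tissue, so their calls are no evidence of a rise. GSTF6, which takes part in synthesis of the defence compound camalexin, had 912, 906 and 379 CPM in Col-0 rootstocks against 9.87, 8.39 and 8.03 CPM in intact Col-0, and rose by log2 4.70 to 6.25 in the mutants (adjusted p at most 1.8e-08). GSTF7 had 345, 439 and 117 CPM in Col-0 rootstocks and rose by log2 3.78 to 6.71 in the mutants (adjusted p at most 3.3e-05). For both, Col-0 rootstock replicate 3 was the lowest of its group, and each rootstock library was above each intact one. GSTU4 rose by log2 4.92 to 7.57 in the mutants (adjusted p at most 1.1e-11). GSTU22 had 21.2 to 45.9 CPM over the 9 mutant rootstock libraries and 0 to 3.16 CPM over the 9 mutant intact ones. GSTU12 had 1.64 to 16.8 CPM over those rootstock libraries and 0 to 0.227 CPM over those intact ones. GSTF8, a stress-inducible member, had 657, 772 and 707 CPM in Col-0 rootstocks against 249, 226 and 269 CPM in intact Col-0, with log2 changes of 1.21 to 2.03 in the mutants (adjusted p at most 4.7e-05). GSTU1 had 91.5 to 162 CPM over the 9 mutant rootstock libraries and 1.39 to 17.2 CPM over the 9 mutant intact ones, with log2 changes of 3.53 to 5.71 (adjusted p at most 1.3e-07). GSTU5, GSTU7 and GSTU8 rose by log2 1.26 to 1.55, 1.41 to 2.52 and 1.39 to 1.74. Among the 19, the calls of GSTU19, GSTU25 and GSTU27 in dof quadruple rootstocks were lost without single libraries. GSTU27 (log2 0.52 ± 0.21, adjusted p = 0.0478) was lost without any one of the 6 libraries compared (0.0607 to 0.14), GSTU25 (adjusted p = 0.0229) without intact replicate 2, intact replicate 3 or rootstock replicate 1 (0.0850 to 0.14), and GSTU19 (adjusted p = 0.00996) without intact replicate 2 or rootstock replicate 1 (0.0582 to 0.0603).

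The 6 members that fell in all 3 mutant rootstocks were GSTU13, GSTU18, GSTU20, GSTU23, GSTU26 and GSTF9. GSTU20 had 0.650, 2.06 and 2.13 CPM in Col-0 rootstocks, against 767, 733 and 782 CPM in intact Col-0. In the mutants it had 0.0458 to 1.88 CPM over the 9 rootstock libraries and 190.3 to 1537 CPM over the 9 intact ones, with log2 changes of -10.56 to -7.55 (adjusted p at most 7.2e-12). This was the widest fall of any tested member in each mutant's rootstock. GSTF9 had 296, 277 and 312 CPM in Col-0 rootstocks against 1519, 1357 and 1671 CPM in intact Col-0, and fell in the mutants by log2 values of -2.92 to -1.32 (adjusted p at most 2.4e-05). GSTU13, which acts in indole glucosinolate metabolism, had 28.99, 24.3 and 29.3 CPM against 71.5, 55.7 and 63.9 CPM, with log2 changes of -1.80 to -1.24 in the mutants (adjusted p at most 7.8e-05). GSTU26 changed by log2 -3.96 to -3.19 and GSTU18 by log2 -1.13 to -0.86 in the mutant rootstocks (adjusted p at most 6.7e-09 and 0.00408). GSTF10 fell in erf114,115 rootstocks (log2 -0.68 ± 0.20, adjusted p = 0.00566; 0.0509 without rootstock replicate 2) and in anac071,096 rootstocks (log2 -0.62 ± 0.20, adjusted p = 0.0130), and was at log2 -0.09 ± 0.20 in dof quadruple. GSTU10, GSTU16 and GSTU28 passed in no mutant rootstock; GSTU10 lay at 0.728 to 4.12 CPM over the 12 rootstock libraries and 0.459 to 2.81 CPM over the 12 intact ones, and GSTU28 at 0 to 2.19 and 0 to 0.909 CPM.

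Scion against rootstock was tested in all 4 genotypes, with the 2 sides of the junction compared directly. In dof quadruple 8 tested members were higher in scion and 10 lower, where 19.7% and 20.1% of all loci were. In erf114,115 10 were higher and 8 lower (all loci 23.6% and 23.1%), and in anac071,096 8 were higher and 11 lower (all loci 23.3% and 22.6%). In Col-0 9 were higher and 11 lower (all loci 23.5% and 22.7%). Median log2 differences of the tested members were -0.42, -0.39, -0.71 and -0.52 in dof quadruple, erf114,115, anac071,096 and Col-0, beside 0.06, 0.09, 0.10 and 0.08 over all loci. Upper-quartile scaling shifted the median of all loci by 0.116 to 0.167 on the log2 scale in these comparisons. Under it the erf114,115 split of all called loci moved to 61.5% higher, from 50.5%, and the members stood at 10 higher and 6 lower in erf114,115 and 10 higher and 9 lower in anac071,096.

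**Figure D3:**
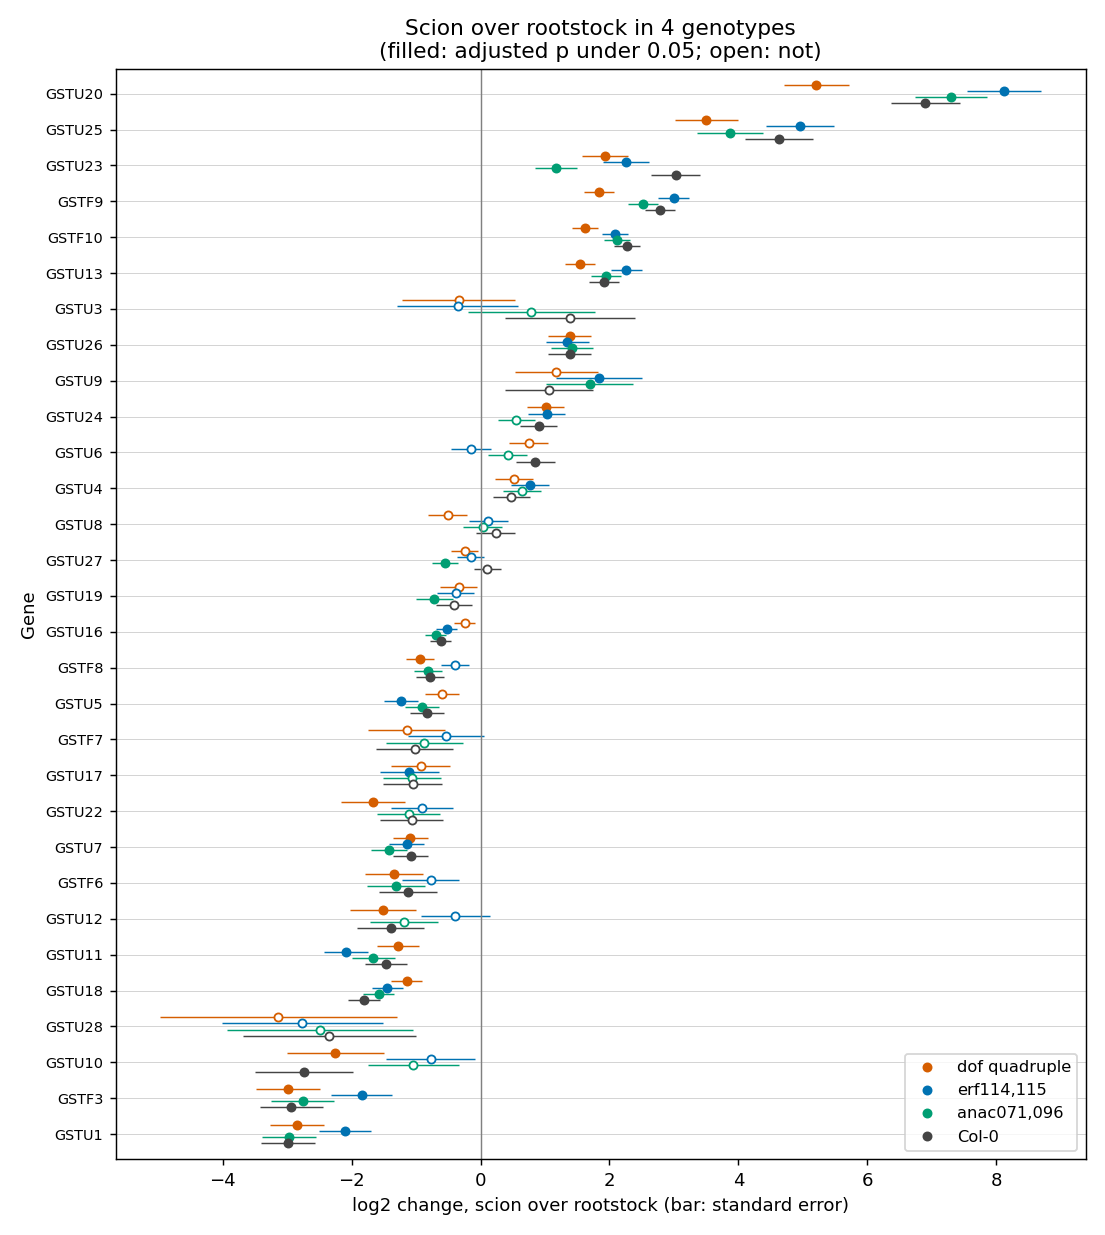
Log2 scion over rootstock (± SE) of the 30 tested members in dof quadruple, erf114,115, anac071,096 and Col-0; filled points have an adjusted p under 0.05. GSTU20 and GSTU25 lie farthest to the scion side in all 4 genotypes, and GSTU1 and GSTF3 are filled on the rootstock side in all 4.

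The 7 members higher in scion in all 4 genotypes were GSTU13, GSTU20, GSTU23, GSTU25, GSTU26, GSTF9 and GSTF10. GSTU20 was higher by log2 5.21 to 8.12 (adjusted p at most 3.4e-09). GSTU25 had 53.05, 35.3 and 25.3 CPM in dof quadruple scions against 4.495, 2.19 and 3.41 CPM in its rootstocks. In erf114,115 it had 87.4, 56.4 and 63.6 CPM in scions against 2.59, 0.957 and 3.18 CPM in rootstocks, and in anac071,096 31.2, 37.3 and 20.5 CPM against 0.687, 2.06 and 3.34 CPM. No rootstock library of any genotype reached a scion library, and the difference was log2 3.50 to 4.95 (adjusted p at most 1.6e-06). GSTF9 had 2407, 1901 and 1796 CPM in Col-0 scions against 296, 277 and 312 CPM in Col-0 rootstocks, a difference of log2 1.84 to 3.00 over the genotypes (adjusted p at most 2.3e-07). GSTF10 had 2128, 2091 and 1754 CPM in Col-0 scions against 393, 427 and 416 CPM in rootstocks, with log2 1.62 to 2.27 over the genotypes (adjusted p at most 2.1e-07). GSTU13 had 128, 88.7 and 95.2 CPM in Col-0 scions against 28.99, 24.3 and 29.3 CPM in rootstocks, with log2 1.54 to 2.26 over the genotypes (adjusted p at most 5.5e-06).

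The 5 members lower in scion in all 4 genotypes were GSTU1, GSTU7, GSTU11, GSTU18 and GSTF3. GSTU1 had 21.4, 18.98 and 11.4 CPM in Col-0 scions against 164, 131 and 115 CPM in Col-0 rootstocks and 3.63, 2.06 and 1.97 CPM in intact Col-0, so that rootstock, scion and intact tissue followed each other without overlap. Its scion over rootstock difference was log2 -2.99 to -2.10 (adjusted p at most 9.5e-05). GSTF3 had 2.31, 1.97 and 2.15 CPM in Col-0 scions against 17.4, 19.5 and 12.1 CPM in rootstocks, with log2 -2.99 to -1.84 over the genotypes (adjusted p at most 0.00202). GSTU11 differed by log2 -2.08 to -1.28 (adjusted p at most 0.00324) and GSTU18 by log2 -1.80 to -1.15 (adjusted p at most 3.8e-04). GSTU7, whose exons partly overlap genes on the opposite strand, differed by log2 -1.42 to -1.09 (adjusted p at most 0.00233). Neighbouring genes did not all share a side. In the cluster of GSTU19 to GSTU23, GSTU20 and GSTU23 were higher in scion, while GSTU22 was at log2 -1.66 to -0.91 and GSTU19 at log2 -0.72 to -0.34.

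Other members passed in some genotypes only, which does not show a difference between genotypes. GSTF8 was at log2 -0.94 to -0.40, called lower in scion in dof quadruple, anac071,096 and Col-0, and also in erf114,115 without rootstock replicate 2 (0.0193). GSTF6 was at log2 -1.35 to -0.78 and was called lower in the same 3 genotypes. Its Col-0 call was lost under upper-quartile scaling (0.0588), with no filter (0.0605) and without scion replicate 1 or 3 or rootstock replicate 1 or 2 (0.0854 to 0.16). In dof quadruple it was lost without scion replicate 3 or rootstock replicate 1 (0.0733 to 0.11), and in anac071,096 without scion replicate 1 or 3 or rootstock replicate 1 (0.0527 to 0.0671), while in erf114,115 it passed without rootstock replicate 2 (0.0381). GSTU24 was at log2 0.56 to 1.02, called higher in dof quadruple, erf114,115 and Col-0, where the call was lost without scion replicate 1 (0.0932) or rootstock replicate 3 (0.0531); in anac071,096 it passed under upper-quartile scaling (0.0410). Among the Col-0 calls, those of GSTU6 (0.13) and GSTU12 (0.12) were also lost without Col-0 rootstock replicate 1. GSTU12 was lower in dof quadruple scions than rootstocks (log2 -1.51 ± 0.51, adjusted p = 0.0220), a call lost without scion replicate 2 or 3 or rootstock replicate 1 or 3 (0.0554 to 0.0721). GSTU22 was lower there too (log2 -1.66 ± 0.49, adjusted p = 0.00814; 0.0522 without scion replicate 3). In anac071,096, where libraries with the same replicate number deviated together, a fit with the replicate as a block added GSTU17 (adjusted p = 0.0432, against 0.0572 without it) and GSTU22 (0.0227, against 0.0619), both lower in scion. GSTU3, GSTU8, GSTU28 and GSTF7 passed in none of the 4 genotypes. None of the 12 calls shared by all 4 genotypes was lost under any alternative setting or left-out library.

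Without grafting, intact dof quadruple hypocotyls differed from intact Col-0 in 7 of the 30 tested members, where 4.59% of all loci tested differed. GSTF7, GSTU25, GSTU4, GSTU1, GSTF6 and GSTU24 rose and GSTU20 fell. The median log2 difference of the tested members was 0.44, beside -0.02 over all loci. GSTF7 had 44.3, 18.2 and 9.78 CPM in intact dof quadruple against 1.79, 2.59 and 0.688 CPM in intact Col-0 (log2 3.80 ± 0.71, adjusted p = 5.7e-04). GSTU24 had 29.9, 15.99 and 18.2 CPM against 6.89, 5.03 and 9.41 CPM (log2 1.59 ± 0.30, adjusted p = 7.4e-04). GSTF6 had 45.3, 22.1 and 17.03 CPM in intact dof quadruple against 9.87, 8.39 and 8.03 CPM in intact Col-0 (log2 1.68 ± 0.47, adjusted p = 0.0291). For all 3 the dof quadruple libraries lay above the Col-0 ones, and replicate 1 was the highest dof quadruple library. GSTU1 averaged 9.53 ± 6.73 CPM in intact dof quadruple and 2.55 ± 0.931 CPM in intact Col-0 (SD, n = 3 each; log2 1.89 ± 0.44, adjusted p = 0.00624 by edgeR). GSTU25 and GSTU4, both at low levels, averaged 1.23 and 0.938 CPM in intact dof quadruple, against 0.0736 and 0.246 CPM in intact Col-0 (edgeR adjusted p = 0.00438 and 0.0156). GSTU20 had 190.3, 342 and 256 CPM in intact dof quadruple against 767, 733 and 782 CPM in intact Col-0 (log2 -1.53 ± 0.41, adjusted p = 0.0202).

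These 7 calls rest unequally on single libraries. Without dof quadruple intact replicate 1, GSTF7 and GSTU24 still passed, while GSTF6 (0.29), GSTU1 (0.17), GSTU20 (0.14), GSTU25 (0.0501) and GSTU4 (0.11) had the adjusted p given. Leaving out Col-0 intact replicate 1 lost GSTF6 (0.0801), GSTU20 (0.0560) and GSTU4 (0.0811), replicate 2 lost GSTF6 (0.0967) and GSTU4 (0.11), and replicate 3 lost GSTF6 (0.13), GSTU1 (0.0547) and GSTU20 (0.0574). Leaving out dof quadruple intact replicate 2 lost GSTU4 (0.0607) and replicate 3 lost GSTU20 (0.0837), while each of these added GSTU9 and GSTU22, and replicate 3 also GSTU11. ERF114, which stood far higher at the graft in Col-0 (4784 counts in scions against 13 in intact tissue), moved in the same libraries, with 3.61, 1.11 and 1.25 CPM in intact dof quadruple against 0, 0.454 and 0 CPM in intact Col-0; its part in the result was not tested.

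**Figure D4:**
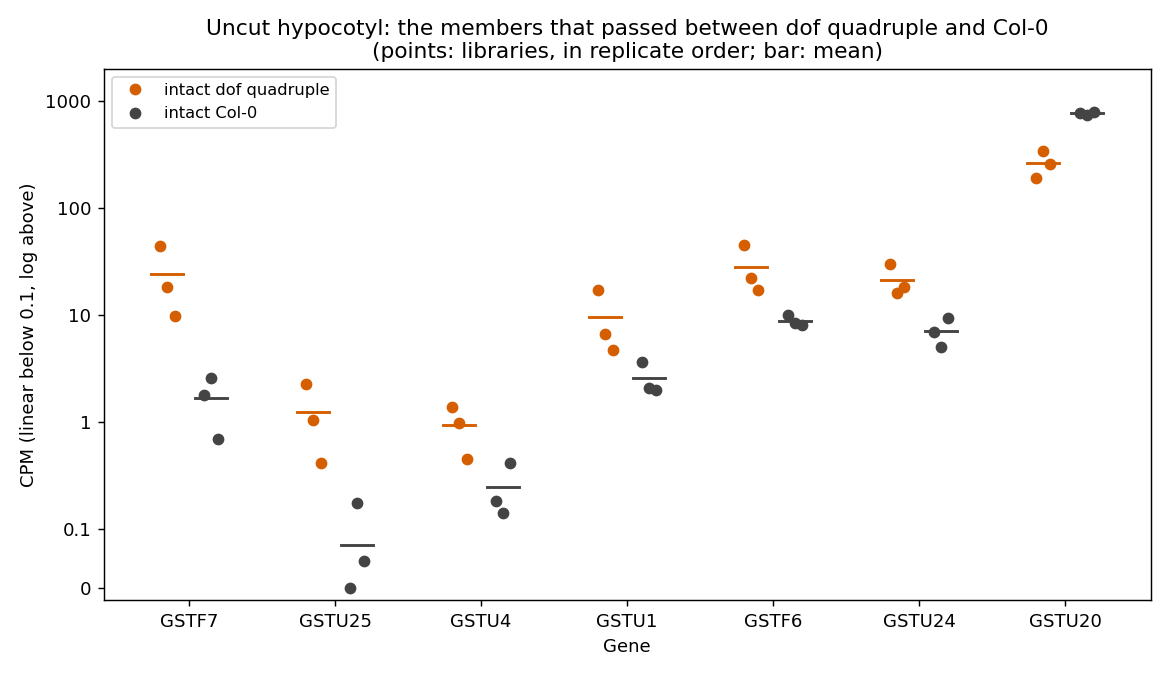
CPM (axis linear below 0.1 and logarithmic above) of the 7 members that passed between intact dof quadruple and intact Col-0, with the libraries as points in replicate order and the group mean as a bar. Replicate 1 is the highest dof quadruple library for the 6 members that rose, and GSTU20 is lower in all 3 dof quadruple libraries.

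In grafted tissue few members differed between mutants and Col-0. GSTU20 was lower in dof quadruple scions, with 49.3, 52.6 and 52.97 CPM against 199.8, 149 and 230.2 CPM in Col-0 scions (log2 -1.90 ± 0.41, adjusted p = 0.00724), the only member called there, where 1.5% of loci were. The 2 sets of libraries did not overlap, and the call was lost without dof quadruple scion replicate 1 (0.0560) or 2 (0.0521). GSTU16 was lower in dof quadruple rootstocks, with 48.98, 42.3 and 48.5 CPM against 70.3, 60.3 and 79.8 CPM in Col-0 rootstocks (log2 -0.59 ± 0.16, adjusted p = 0.0301), again the single member called, where 3.73% of loci were. That call was lost without Col-0 rootstock replicate 1 (0.0807) or 3 (0.17) and without dof quadruple rootstock replicate 1 (0.0646), 2 (0.17) or 3 (0.0682).

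In erf114,115 scions GSTU6 was lower, with 38.5, 27.6 and 38.7 CPM against 91.2, 99.8 and 79.7 CPM in Col-0 scions (log2 -1.37 ± 0.31, adjusted p = 0.0201), 1 of 30 members where 0.893% of loci were called. The libraries did not overlap, but the call was lost without Col-0 scion replicate 1 (0.0738) or 2 (0.0957) and without erf114,115 scion replicate 2 (0.15) or 3 (0.0604). GSTU11 was at log2 -1.02 ± 0.33 there (adjusted p = 0.19) and passed without erf114,115 scion replicate 1 (0.0422). No member passed edgeR's test in erf114,115 rootstocks against Col-0 rootstocks (0.38% of loci), with 2 members at an unadjusted p under 0.05 and 1 called by DESeq2. That member was GSTU12, with 4.52, 1.64 and 1.74 CPM in erf114,115 rootstocks against 16.8, 14.6 and 5.99 CPM in Col-0 rootstocks (log2 -2.25 ± 0.54, edgeR adjusted p = 0.0708). In this comparison same-numbered libraries deviated together, and with the replicate as a block the adjusted p of GSTU12 was 0.0367. It also passed without Col-0 rootstock replicate 3 (0.0327) or erf114,115 rootstock replicate 1 (0.0482).

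In anac071,096 rootstocks GSTU23 was higher, with 1.74, 1.20 and 1.38 CPM against 0.200, 0.484 and 0.448 CPM in Col-0 rootstocks (log2 1.91 ± 0.38, adjusted p = 0.00544), 1 of 30 members where 0.863% of loci were called. The libraries did not overlap, and the call was lost without Col-0 rootstock replicate 1 (0.0726) or anac071,096 rootstock replicate 1 (0.0555). By edgeR no member passed in anac071,096 scions (0.385% of loci), intact anac071,096 (0.0411%) or intact erf114,115 (0.0308%) against the same tissue of Col-0, with 1 member at an unadjusted p under 0.05 in each, and DESeq2 also called none.

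Whether the response to grafting itself differed from that of Col-0 was tested as a difference of changes. This difference subtracts the Col-0 contrasts through which the family was taken up, a choice that favours smaller mutant responses, so its p-values are not independent of that choice. The scion response of dof quadruple was smaller for 3 members, GSTU24 (log2 -1.77 ± 0.41, adjusted p = 0.0272), GSTU25 (log2 -3.87 ± 0.97, adjusted p = 0.0444) and GSTF7 (log2 -3.79 ± 0.91, adjusted p = 0.0330), where 0.945% of loci differed. GSTU24 was at 147 CPM in dof quadruple scions and 166 CPM in Col-0 scions, against 21.4 CPM in intact dof quadruple and 7.11 CPM in intact Col-0. Scion levels of the 2 genotypes were thus close, and the intact levels apart. GSTF7 was at 149 CPM in dof quadruple scions and 148 CPM in Col-0 scions. The rootstock response was smaller for GSTU24 (log2 -1.88 ± 0.42, adjusted p = 0.0167) and GSTF7 (log2 -3.66 ± 0.91, adjusted p = 0.0430), where 0.899% of loci differed. These tests share the intact libraries with each other and with the intact comparison. GSTU1 was at log2 -2.07 ± 0.59 in the scion response (adjusted p = 0.10) and passed there by DESeq2 (0.0403) and without dof quadruple intact replicate 3 (0.0351) or scion replicate 1 (0.0336). In the rootstock response GSTU1 was at log2 -2.22 ± 0.58 (adjusted p = 0.0642) and passed by DESeq2 (0.0155) and without dof quadruple intact replicate 3 (0.0211).

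Each of the 5 calls was lost without some single libraries. The GSTU24 scion call did not survive leaving out Col-0 scion replicate 1, replicate 1 or 2 of intact Col-0, dof quadruple intact replicate 1 or dof quadruple scion replicate 2 or 3 (0.0617 to 0.15). That of GSTU25 held only without Col-0 scion replicate 3, dof quadruple intact replicate 3 or dof quadruple scion replicate 1, and was otherwise at 0.0593 to 0.23. The GSTF7 scion call was kept without those same libraries or dof quadruple intact replicate 2, and was otherwise at 0.0524 to 0.19. In rootstocks GSTU24 was lost without replicate 2 of intact Col-0, Col-0 rootstock replicate 1, dof quadruple intact replicate 1 or dof quadruple rootstock replicate 2 or 3 (0.0506 to 0.0969), and GSTF7 without all but Col-0 rootstock replicate 3, dof quadruple intact replicate 3 and dof quadruple rootstock replicate 1 (0.0598 to 0.23). For the other mutants edgeR called no member: 0.0513% and 0.0462% of loci differed in the erf114,115 scion and rootstock responses, with 1 and 3 members at an unadjusted p under 0.05, and 0.0462% and 0.205% in those of anac071,096, with 0 and 1. DESeq2 called none of the members there except GSTU23 in the anac071,096 rootstock response (edgeR log2 2.07 ± 0.50, adjusted p = 0.0806; DESeq2 0.0302). GSTU23 also passed edgeR's test without anac071,096 intact replicate 3 (0.0434).

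Genes that act with the family were read from lists chosen with earlier results of these data known; the shares of all loci passing are those given above for each comparison. Of 11 tested genes known to respond to electrophiles and xenobiotics, 6 higher and 1 lower passed in dof quadruple scions over intact, 9 higher and 0 lower in erf114,115 and 7 higher and 0 lower in anac071,096. In rootstocks 8 higher and 0 lower, 9 higher and 1 lower and 9 higher and 0 lower passed in the same order. OPR1, an oxophytodienoate reductase, rose in the mutant scions by log2 1.42 to 3.13 and in their rootstocks by 2.17 to 3.59 (adjusted p at most 1.3e-05 and 3.5e-08). AER, an alkenal reductase, rose in rootstocks by log2 2.82 to 3.74 (adjusted p at most 6.9e-11), and the cytochrome P450 CYP81D11 was lower in scions than rootstocks by log2 values of -3.08 to -2.39 over the 4 genotypes (adjusted p at most 1.1e-08). In intact dof quadruple over intact Col-0 6 higher and 0 lower passed, among them CYP81D11 (log2 1.76 ± 0.26, adjusted p = 1.8e-05) and UGT73B5 (log2 1.68 ± 0.24, adjusted p = 1.5e-05), a glucosyltransferase. The dof quadruple scion response was smaller for 4 of these 11 genes and the rootstock response for 2, CYP81D11 (log2 -1.94 ± 0.36, adjusted p = 0.00222) and the aldo-keto reductase AKR4C9 (log2 -3.54 ± 0.72, adjusted p = 0.00756).

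Of 14 tested genes of the other transferase classes and phi members outside the 37, 6 higher and 4 lower, 7 higher and 2 lower and 6 higher and 3 lower passed in scions over intact of dof quadruple, erf114,115 and anac071,096. In rootstocks 4 higher and 3 lower, 5 higher and 4 lower and 5 higher and 5 lower passed in the same order. Of all loci, 28.7%, 28.7% and 27% rose and 25.6%, 21.6% and 22.9% fell in those scions. In those rootstocks 22.9%, 26.9% and 21.7% of all loci rose and 17.4%, 17.9% and 16.4% fell. A count near these shares, here and for the lists below, is no result about its list. DHAR2, which recycles ascorbate, rose by log2 2.06 to 2.49 in scions and 2.01 to 2.86 in rootstocks (adjusted p at most 3.7e-09 and 1.2e-08), while its plastid relative DHAR3 fell by log2 values of -1.17 to -0.97 and -1.14 to -0.97 (adjusted p at most 3.1e-08 and 4.3e-08). GSTF12 (TT19), needed for anthocyanin transport, was lower in intact dof quadruple than in intact Col-0 (log2 -7.48 ± 0.84, adjusted p = 2.5e-07) and in dof quadruple scions (log2 -4.35 ± 0.62, adjusted p = 2.4e-05). Of 5 tested genes listed under conjugate transport, 2 higher and 0 lower, 3 higher and 0 lower and 4 higher and 0 lower passed in rootstocks over intact. They were led by the exporter DTX1 (log2 2.86 to 3.93, adjusted p at most 1.4e-06) and the vacuolar ABCC3 (log2 1.06 to 1.41, adjusted p at most 1.7e-04). Whether DTX1 carries glutathione conjugates was not tested. In scions the counts were 1 higher and 1 lower, 3 higher and 0 lower and 2 higher and 0 lower. Of 10 tested genes of glutathione synthesis and turnover, 2 higher and 3 lower, 2 higher and 3 lower and 3 higher and 4 lower passed in scions over intact, and 1 higher and 3 lower, 2 higher and 2 lower and 1 higher and 1 lower in rootstocks. Of 8 TGA factors and their partners, 0 higher and 5 lower, 1 higher and 4 lower and 1 higher and 5 lower passed in scions over intact, where TGA1 fell by log2 values of -1.43 to -1.13 (adjusted p at most 1.9e-04). In rootstocks 0 higher and 1 lower, 2 higher and 1 lower and 3 higher and 1 lower passed.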

How the data were processed

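The deposited table holds raw read counts per locus for 36 libraries of polyadenylated RNA (NEBNext Ultra kit, 13 PCR cycles, per the labels' protocols). The submitters' processing notes name fastp, HISAT2, HTSeq, DESeq2 and TAIR10; tool versions, the strand setting and the annotation release were not given in the sources used here. Groups were taken from the titles, and the design text calls replicates biological; p-values measure the spread between these libraries.

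Counts were scaled by TMM (factors 0.784 to 1.31) and fitted in edgeR 4.0.16 (R 4.3.3) as 12 groups with 24 residual degrees of freedom, after filterByExpr (minimum count 10), which left 19476 loci. The robust quasi-likelihood test was adjusted by Benjamini-Hochberg within each of 25 comparisons; a member passes at 0.05. The common biological coefficient of variation was 25.8%. The SE of a log2 change was computed as its absolute value over the square root of the test's F statistic. This SE is approximate, most of all for members near 0 counts. CPM use effective library sizes and are compared between genes per kilobase of exon alone. The fit was tried on simulated independent libraries with the same spread at every locus and few changed loci. The real libraries differ from that setting, so the trial checks the code and not the fit to these data. Alternatives were other scalings, no filter, a replicate block, DESeq2 1.42.0, each library left out and, added after seeing the data, a recount over loci passing the filter on intact libraries alone. Same-numbered libraries were taken as paired where every correlation of their deviations from the group means (log2 CPM plus 0.5) exceeded 0.1, which held in 9 of 21 checks (r from -0.331 to 0.772); the design does not tie the numbers to a day or batch. Members with values in every library were GSTU11 and, per comparison, up to 4 per direction with the largest log2 among those that passed, reached a group mean of 10 CPM and did not overlap. Members called in a comparison between genotypes below that mean are also named. The 37 members and the gene lists were chosen with earlier results of these data known. Sequences and annotation are from RefSeq TAIR10.1, read with Biopython 1.88.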

Additional observations from a re-analysis of the deposited data

Results flagged for a closer look

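The response of dof quadruple to grafting differed from that of Col-0, by edgeR's test of the difference, for GSTU24 (log2 -1.77), GSTU25 (-3.87) and GSTF7 (-3.79) in scions and for GSTU24 (-1.88) and GSTF7 (-3.66) in rootstocks. In each case the change was smaller in dof quadruple, and the test uses the Col-0 contrasts through which the family was taken up.

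Some members lay above intact tissue in all scion libraries and below it in all rootstock libraries of a genotype. In Col-0 these were GSTU13, GSTF9 and GSTF10, with scion over rootstock differences of log2 1.92, 2.79 and 2.27. In dof quadruple it was GSTF9 (1.84), in erf114,115 GSTU13 (2.26) and GSTF10 (2.09), and in anac071,096 GSTF10 (2.12). The opposite direction from intact was not itself tested; the scion over rootstock difference was, and passed in each.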

How the results depend on the processing

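Over 42 alternatives, 1128 of 1158 recomputed log2 changes of GSTU11 and of the members picked in each comparison by the naming rule, 102 results in all, kept their direction and side of the threshold, 26 fell short of it, 4 came to pass it and 0 changed direction. Over all tested members and comparisons the alternatives lost 167 calls and added 64. Of 317 recounts of members passing, 270 stayed within 1.5 times the count reported. With DESeq2 the count was 3 in erf114,115 scions over Col-0 scions (against 1), 1 in erf114,115 rootstocks (against 0), 5 and 4 in the dof quadruple scion and rootstock responses (against 3 and 2) and 1 in the anac071,096 rootstock response (against 0). Without the filter on low counts both dof quadruple responses had 1. The replicate block gave 1 in erf114,115 rootstocks over Col-0 (GSTU12), in a comparison where same-numbered libraries deviated together; among the paired comparisons it changed no other call than this and GSTU17 and GSTU22 in anac071,096 scions over rootstocks. In comparisons whose libraries share only a number, the block added GSTU1 in dof quadruple scions over intact and in both dof quadruple responses, GSTU5 in anac071,096 scions over intact, GSTU17 and GSTU22 in Col-0 scions over rootstocks, and GSTU5 and GSTU6 in dof quadruple scions over rootstocks; over all 21 checks 42 of 63 libraries correlated best with their own number. Counting only loci that pass the filter on intact libraries alone, a setting chosen after seeing the data, gave 15 members in dof quadruple scions over intact (against 20), 21 (26) in its rootstocks, 19 (24) and 22 (27) in erf114,115 and 17 (22) and 22 (26) in anac071,096. Leaving out single libraries gave 2 to 9 members in intact dof quadruple over Col-0, 0 to 1 in its scions and in its rootstocks, 0 to 2 in erf114,115 scions, 0 to 1 in erf114,115 rootstocks and in anac071,096 rootstocks, 0 to 5 and 0 to 4 in the dof quadruple scion and rootstock responses, and 0 to 1 in the anac071,096 rootstock response. Where no filter or fewer libraries were used, the number of loci or samples in the test changed; otherwise the cause was not tested. Depth limits the members with few counts: over the comparisons the median standard error was widest for GSTU28, GSTU3 and GSTU9.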
